A study of Mus musculus with 6 samples.

Results

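The 10 genes described here encode proteins that work beside the ribosome and whose messages are classed as TOP messages: the elongation factor genes Eef1a1, Eef1b2, Eef1g and Eef2, the growth-related gene Tpt1, the poly(A)-binding protein gene Pabpc1, the nucleolar gene Npm1, the nascent chain genes Naca and Btf3, and the initiation factor gene Eif3e. They were taken by symbol from an expression table of 26264 genes, and all 10 were found. The RNA came from endothelial cells of mouse liver, in 3 libraries from C57BL6 mice that ate a diet with 1200 ppm PLX5622 for 1 month and 3 libraries from C57BL6 mice that ate a control diet for the same time. PLX5622 is an oral drug that blocks CSF1R, the receptor on which most tissue macrophages depend for survival. The study asked whether the drug changes cholesterol metabolism in endothelial cells outside the brain. The cells were sorted by flow cytometry for CD31, an adhesion protein on the endothelial surface, out of 1 lobe of the liver. Every library is labelled as its own biological replicate. The labels used here give no age of the mice.

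A TOP message begins, right at its cap, with a C that is followed by an unbroken run of pyrimidines (C or T in the DNA). The kinase complex mTORC1, through the binding protein LARP1, controls how strongly such messages are loaded onto ribosomes, so that ribosomal proteins and the factors that serve them are made together when cells grow. That control acts on translation and on message stability. The data here are RNA levels, and translation was not measured.

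The pyrimidine tract is shown first, because it is what the 10 genes are grouped by. RefSeq promoter sequence (build GRCm38.p6, another build than the mm39 of the study) was at hand for 6 of the 10 genes, Eef1a1, Eef1b2, Eef2, Tpt1, Naca and Btf3, and not for Eef1g, Pabpc1, Npm1 and Eif3e. The motif is a C followed by at least 4 C or T, read on the strand of the gene only. In the promoter stretches capitals mark every such run, and in the transcript starts they mark only the run that begins at the first base. The stretches for Eef2 (chr10:81176606-81176655, plus strand) and for the downstream start of Btf3 (chr13:98316943-98316992, minus strand) hold 25 bases on each side of the RefSeq start. The other pair are the first 20 bases of transcripts in GENCODE M21 (GRCm38), for Eef1b2 (chr1:63177130-63177149, plus strand) and for Tpt1 (chr14:75845331-75845350, plus strand).
Eef2 promoter: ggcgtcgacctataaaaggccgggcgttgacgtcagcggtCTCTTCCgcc
Btf3 promoter: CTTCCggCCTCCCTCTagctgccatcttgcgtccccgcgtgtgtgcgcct
Eef1b2 transcript start: CTTTTTTTCCCTCagcgctg
Tpt1 transcript start: CTTTTCCgcccgctcccccc
In the Eef1b2 transcript, a protein-coding one, the tract spans 13 bases from the first base. In Tpt1 it spans 7 bases from the first base, in a transcript that the annotation calls a retained intron. In Eef2 the tract begins at base 16 of the annotated message.

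Such letters are common near gene starts. Of the 7 RefSeq start windows of the 6 genes, 5 held a match within 25 bases of the start, against 53.0% of all 32851 promoters, and 0 had the match at the start base itself, against 2.51% of all promoters. Of 35 GENCODE transcripts of these genes, 3 began with the tract, 2 of Eef1b2 and 1 of Tpt1, against 2.02% of all transcripts. These are annotated starts. Where transcription began in the sorted cells was not measured.

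Over the 15097 genes found in both deposited tables, the libraries had between 14517957 and 32732221 reads, worked out from the expression values. Of 8 endothelial markers, all detected in every library, 6 had a fold change below 0 (median log2 fold change -0.074), with a summed level of 8051 to 10098 TPM on PLX5622 and 8085 to 11110 TPM on the control diet. Stab2, a scavenger receptor of sinusoidal endothelium, stood at 279, 474 and 684 TPM on PLX5622, against 343, 1007 and 993 TPM on the control diet, with overlapping ranges. The endothelial marker Pecam1 was at 1557 to 1853 TPM on PLX5622 and 1510 to 1981 TPM on the control diet, with overlapping ranges. Cdh5 was at 1124 to 1194 TPM on PLX5622 and 1205 to 1230 TPM on the control diet, without overlap. Of all tested genes 8.68% were without overlap. TPM is a share of a library's reads scaled for gene length. Hepatocyte markers were present in every library (9 of 9 listed genes), with a summed level of 1290 to 2578 TPM on PLX5622 and 1953 to 4658 TPM on the control diet, the highest in control replicate 1. Of 8 Kupffer cell markers 8 had a fold change below 0. Their summed level was 34.4 to 71.0 TPM on PLX5622 and 73.8 to 133 TPM on the control diet, without overlap. Stellate cell markers (5 genes) summed to 46.5 to 73.0 TPM on PLX5622 and 30.5 to 65.4 TPM on the control diet. Platelet markers (4 genes) summed to 19.9 to 38.0 TPM on PLX5622 and 14.0 to 31.7 TPM on the control diet. Cholangiocyte markers (4 genes) reached a sum of at most 15.6 TPM on PLX5622 and at most 10.5 TPM on the control diet. Markers of lymphocytes, neutrophils and red cells each summed to at most 11.8 TPM in any library. The neutrophil gene Ly6g and 4 of 5 listed red cell genes, Hbb-bs, Hbb-bt, Hba-a1 and Hba-a2, were listed at 0 throughout. The red cell sum thus rests on Alas2 alone. How reads that match several places were counted is not stated, so the zeros of these 4 genes do not show that red cells were absent. The part of these other cells in the results below was not tested. In sorted bulk RNA, fewer cells of a type and less RNA per cell cannot be told apart.

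No difference between the diets was detected in any of the 10 genes. Limma called 0 of the 10 at an adjusted p under 0.05, where it called 0 of all 13739 tested genes (0%), and 0 of the 10 had an unadjusted p under 0.05, against 3.34% of all tested genes. By adjusted p, 0 of the 10 pass in the authors' deposited table from DESeq2, where 0.0729% of 15097 genes do. Unadjusted, 0 of the 10 lie under 0.05 in the authors' deposited table, where 3.18% of genes do. With voom (limma) on the recovered reads both counts were again 0. In none of the 10 did the libraries of the diets stand apart without overlap, which 8.68% of all tested genes did. The median log2 fold change of the 10 was 0.029, beside -0.017 over all tested genes, and 8 of the 10 lay above 0, where 46.2% of all tested genes did. Above 0 in the authors' deposited table are likewise 8 of the 10, and 47.6% of all its genes. Fold changes are given as PLX5622 over control and, except those of the authors, are differences in mean log2(TPM + 1).

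The elongation factors come first. Eef1a1 brings aminoacyl-tRNA to the ribosome, and at a mean of 6950 TPM over the 6 libraries it ranked 3 among the 13739 tested genes. It stood at 6871, 6915 and 7330 TPM in PLX5622 replicates 1 to 3, against 6930, 6789 and 6864 TPM in control replicates 1 to 3. PLX5622 replicate 3 was the highest library and the other five lay close together. The mean was 7038 ± 253 TPM on PLX5622 and 6861 ± 70.4 TPM on the control diet (SD, n = 3 each). The log2 fold change was 0.036 (95% interval -0.24 to 0.31).

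Eef2, which moves the ribosome along the message by a codon, was the gene of the 10 with the largest fold change. It stood at 1902, 1974 and 2006 TPM in the PLX5622 libraries, against 1605, 1927 and 1892 TPM in the control libraries. Control replicate 1 lay below all other libraries, and control replicate 2 lay within the PLX5622 range. The log2 fold change was 0.12 (95% interval -0.13 to 0.38), and the authors' deposited table gives 0.13 (SE 0.118, unadjusted p = 0.270). Without control replicate 1 it was 0.038, and the cause was not tested.

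Eef1b2 and Eef1g are subunits of the exchange complex that reloads Eef1a1 with GTP. Eef1b2, the exchange subunit, stood at 258, 265 and 273 TPM on PLX5622, against 257, 241 and 269 TPM on the control diet. Eef1g, a scaffold subunit, stood at 634, 606 and 620 TPM on PLX5622, against 642, 598 and 583 TPM on the control diet. In both genes the ranges overlapped, with log2 fold changes of 0.054 (95% interval -0.14 to 0.24) for Eef1b2 and 0.031 (95% interval -0.16 to 0.22) for Eef1g. The ratio of Eef1g to Eef1a1 was 0.0882 ± 0.00391 on PLX5622 and 0.0885 ± 0.00388 on the control diet (SD, n = 3 each, in TPM). The ratio of Eef2 to Eef1a1 was 0.274 to 0.285 on PLX5622, and 0.232, 0.284 and 0.276 in the control libraries, with control replicate 1 alone below the others.

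**Figure D1:**
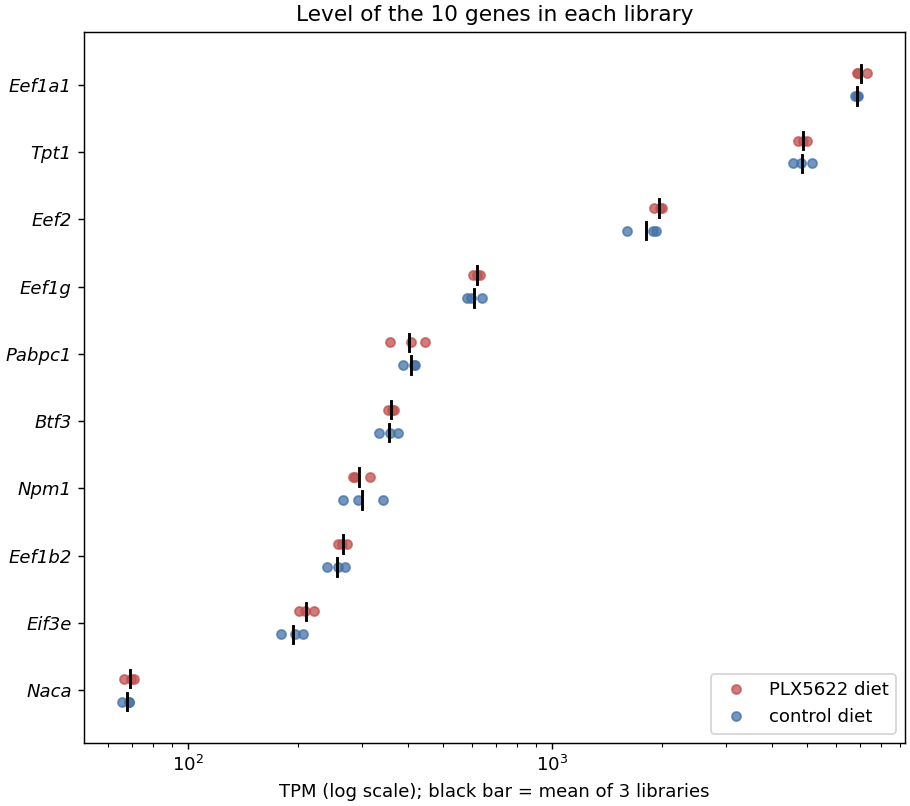
Level of each of the 10 genes in TPM (x axis, log scale), with 1 point per library and a black bar at the mean of the 3 libraries of a diet, PLX5622 above control. Eef1a1 has the highest mean, 6950 TPM over the 6 libraries, and Naca the lowest, 68.3 TPM, and in every gene the points of the diets overlap.

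The nascent polypeptide-associated complex meets new chains as they leave the ribosome, and Naca and Btf3 encode its alpha and beta subunits. Naca stood at 70.7, 66.5 and 69.7 TPM on PLX5622, against 68.7, 65.6 and 68.7 TPM on the control diet. Btf3 stood at 362, 354 and 366 TPM on PLX5622, against 376, 333 and 359 TPM on the control diet. Neither separated the diets, with log2 fold changes of 0.027 (95% interval -0.17 to 0.22) for Naca and 0.021 (95% interval -0.17 to 0.21) for Btf3. The ratio of Naca to Btf3 was 0.191 ± 0.00375 on PLX5622 and 0.190 ± 0.00724 on the control diet (SD, n = 3 each).

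The low TPM of Naca goes with the length that was used for it. Naca had 22961 reads over the 6 libraries and Btf3 19014, yet the TPM values imply a length of 9085 bases for Naca and 1435 for Btf3, on a scale set by 14667 genes to the exon lengths of GENCODE M21. The protein-coding transcripts of Naca in that annotation have 885 and 6745 bases. The diet comparison within Naca uses the same length in all libraries, whereas its place below the other genes depends on that length.

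The cap and tail of the message are served by Eif3e and Pabpc1. Eif3e encodes a subunit of eIF3, the complex that brings the small ribosomal subunit to the message. It stood at 209, 202 and 222 TPM on PLX5622, against 180, 196 and 207 TPM on the control diet, with PLX5622 replicate 2 below control replicate 3. The log2 fold change was 0.12 (95% interval -0.089 to 0.33), the second largest of the 10, and 0.063 without control replicate 1. Pabpc1, which coats the poly(A) tail, stood at 408, 448 and 357 TPM on PLX5622, against 420, 416 and 389 TPM on the control diet. PLX5622 replicates 2 and 3 were the highest and the lowest of the 6 libraries, and the log2 fold change was -0.020 (95% interval -0.26 to 0.22).

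The remaining genes are linked to growth. Tpt1 encodes the translationally controlled tumor protein and, at a mean of 4865 TPM, ranked 10 among all tested genes. It stood at 4732, 4993 and 4880 TPM on PLX5622, against 4584, 4821 and 5177 TPM on the control diet. The PLX5622 libraries lay inside the control range, and the log2 fold change of 0.0037 (95% interval -0.26 to 0.27) was the one closest to 0. Npm1, a nucleolar chaperone of ribosome assembly, stood at 316, 286 and 283 TPM on PLX5622, against 343, 267 and 292 TPM on the control diet. Here too the PLX5622 libraries lay inside the control range, and the log2 fold change was -0.021 (95% interval -0.28 to 0.24). Its sign changed when control replicate 1 was left out, to 0.079.

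**Figure D2:**
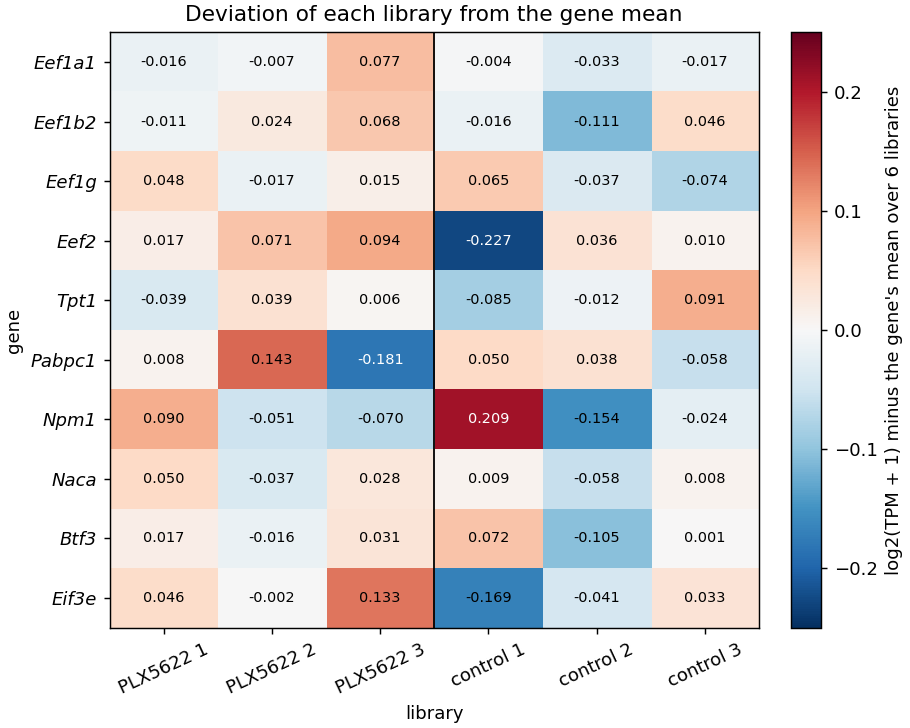
Deviation of each library (columns, PLX5622 left of the line and control right of it) from the mean of the gene over the 6 libraries, in log2(TPM + 1), for the 10 genes (rows). The largest deviations are in control replicate 1, at -0.23 for Eef2 and 0.21 for Npm1, and in PLX5622 replicate 3, at -0.18 for Pabpc1.

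Across the 10 genes the intervals set limits on what a diet effect could be, under the moderated spread that limma uses. The highest upper bound was that of Eef2, a 1.30-fold higher level on PLX5622, and the lowest lower bound was that of Npm1, at 0.823 of the control level. The authors' deposited table gives fold changes of the same sign for all 10, between -0.015 (Npm1) and 0.13 (Eef2 and Eif3e), with standard errors of at most 0.146. Both sets of values come from the same libraries.

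**Figure D3:**
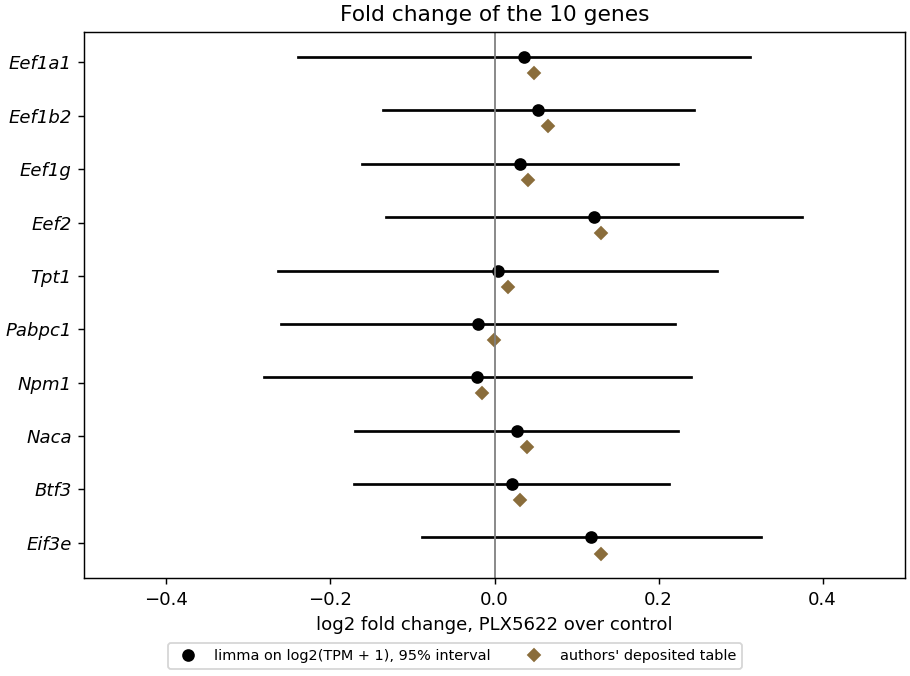
Log2 fold change of PLX5622 over control (x axis) for each of the 10 genes. Black points and lines are limma estimates with 95% intervals, brown diamonds are values of the authors' deposited table, and each interval includes 0.

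Most of the 10 genes varied little between libraries of one diet. The residual SD on the log2 scale, within diets, was lowest in Eef1a1, at 0.038, and 0.575% of all tested genes had a lower one. Naca followed at 0.042, then Eef1g at 0.056, Eef1b2 at 0.063, Btf3 at 0.065 and Tpt1 at 0.068. The least steady were Eif3e at 0.087, Eef2 at 0.11, Pabpc1 at 0.12 and Npm1 at 0.14. The median over all tested genes was 0.21, and over the 2950 genes with at least the level of Naca it was 0.14. That set reaches down to the level of Naca, which depends on the length used for it. Over the tested ribosomal protein genes the median was 0.070, beside 0.067 over the 10 genes, so the small spread is not particular to the 10. Expected counting error alone, in the library with the fewest reads of a gene, ran between 0.401% for Eef1a1 and 2.49% for Eif3e, whereas the SD between replicates reached 11.2% of the mean for Pabpc1 on PLX5622 and 12.98% for Npm1 on the control diet.

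**Figure D4:**
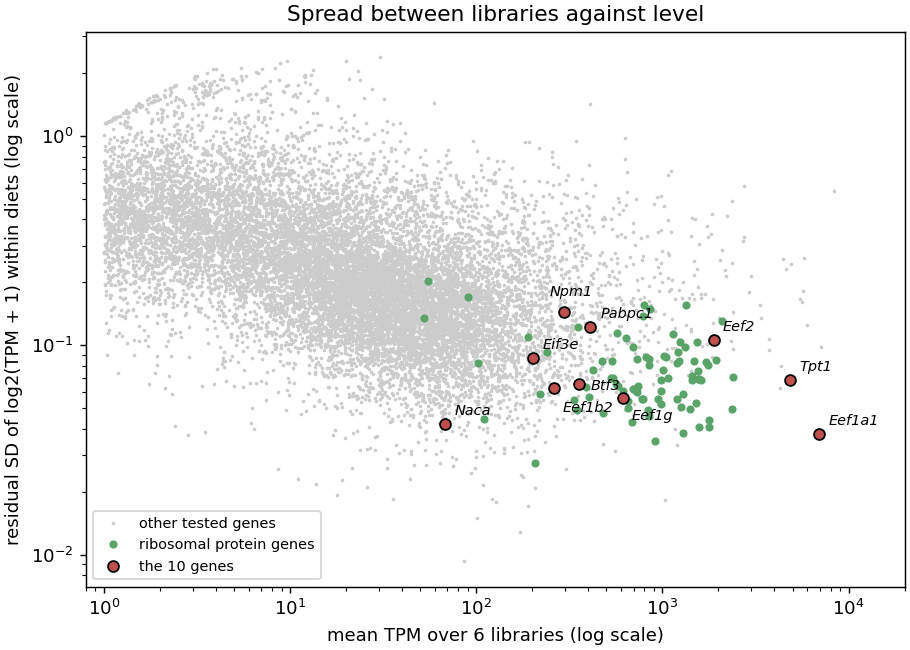
Residual SD of log2(TPM + 1) within diets (y axis, log scale) against mean TPM over the 6 libraries (x axis, log scale) for all tested genes in grey, ribosomal protein genes in green and the 10 genes in red. Eef1a1 and Naca sit lowest of the 10, at 0.038 and 0.042, and Npm1 highest, at 0.14.

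The order of levels was Eef1a1, Tpt1, Eef2, Eef1g, Pabpc1, Btf3, Npm1, Eef1b2, Eif3e and Naca. Over the 6 libraries the ranges of Pabpc1 and Btf3 overlapped, as did those of Btf3 and Npm1 and those of Npm1 and Eef1b2, and all other neighbours stood apart. Together the 10 genes took up 1.58%, 1.61% and 1.64% of all TPM in the PLX5622 libraries, against 1.54%, 1.57% and 1.61% in the control libraries. Eef1a1 and Tpt1 made up 73.6% to 74.4% of that sum on PLX5622 and 74.2% to 74.8% on the control diet.

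Cytosolic ribosomal protein genes, whose messages are the classical TOP messages, offer the nearest comparison. Their share of all TPM was 8.02%, 8.32% and 8.33% in the PLX5622 libraries, against 7.43%, 7.35% and 7.83% in the control libraries, so the diets did not overlap in it. Over 83 tested ribosomal protein genes the median log2 fold change was 0.14. Beside 46.2% of all tested genes, 79 of these 83 lay above 0. In 44 of them every PLX5622 library lay above every control library, which held for 4.18% of all tested genes and for 5.12% of the 2950 genes with at least the level of Naca. None passed the adjusted threshold of limma. By limma 7 had an unadjusted p under 0.05 with the higher level on PLX5622 (1.64% of all tested genes did). Among 84 in the authors' deposited table none passed the adjusted threshold. Unadjusted, 3 of the 84 lay under 0.05 there, close to the share of all its genes, 3.18%. Fau, which encodes a ribosomal protein made as a fusion with a ubiquitin-like protein, stood at 675, 673 and 652 TPM on PLX5622, against 531, 561 and 594 TPM on the control diet, a log2 fold change of 0.25 (95% interval 0.053 to 0.44). Rpl38, Rpl11 and Rpl37, all of the large subunit, were at 0.24, 0.22 and 0.21, and Rplp1, the ribosomal protein gene with the highest mean, was at 0.15. The summed TPM of the 10 genes came to 19.6%, 19.4% and 19.7% of the ribosomal protein sum on PLX5622, against 20.7%, 21.3% and 20.6% on the control diet. Ribosomal protein genes share their regulation and their libraries, so their counts are not independent of one another, and no test of the difference between them and the 10 genes was made.

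Of 8 further genes with TOP messages, some of which are also in the lists below, 4 lay above 0 and 4 below, with a median log2 fold change of 0.041. Eif4b, a helper of the cap-dependent helicase, had the largest, at 0.17 (95% interval -0.058 to 0.39), and Vim, the intermediate filament gene vimentin, the highest mean level, with 1400 ± 88.5 TPM on PLX5622 and 1478 ± 245 TPM on the control diet (SD, n = 3 each). In the pair that did not overlap, Eef1d and Rack1, every PLX5622 library was the higher, which held for 4.18% of all tested genes. Eef1d, the other exchange subunit of the Eef1a1 complex, stood at 72.7, 71.3 and 72.8 TPM on PLX5622, against 61.8, 69.3 and 67.3 TPM on the control diet, a log2 fold change of 0.13 (95% interval -0.078 to 0.33). Rack1, a scaffold protein bound to the small subunit, stood at 1191, 1265 and 1206 TPM on PLX5622, against 1097, 1143 and 1101 TPM on the control diet, a log2 fold change of 0.13 (95% interval -0.067 to 0.33). Eef1d and Rack1 were picked out after their values were seen, and neither passed the test.

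Fold changes of the other eIF3 subunits lay on both sides of 0. Of 12 tested subunits 5 lay above 0 and 7 below, with a median log2 fold change of -0.040. Eif3g had the largest, at -0.17 (95% interval -0.39 to 0.039), and Eif3h, the subunit with the highest level, was at -0.061. Eif3a, the largest subunit and a scaffold of the complex, stood at 188, 171 and 196 TPM on PLX5622, against 217, 199 and 202 TPM on the control diet. It was the 1 subunit of the 12 in which the diets did not overlap, as they did not in 8.68% of all tested genes. It was named after its values were seen. Limma passed 0 of the 12, and 0 had an unadjusted p under 0.05.

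Of 18 other initiation factors 8 lay above 0, with a median of -0.020. Eif4a1, the helicase that unwinds the start of messages, had the largest fold change, at -0.19 (95% interval -0.60 to 0.22), which was -0.026 without control replicate 1 and -0.32 without control replicate 2. Eif1, a factor of start codon choice, had the highest level, with 1163 ± 112 TPM on PLX5622 and 1163 ± 155 TPM on the control diet (SD, n = 3 each). Eif4g3, a scaffold of the cap-binding complex, was the 1 gene of the 18 without overlap, at 87.5, 84.9 and 94.1 TPM on PLX5622, against 99.5, 94.7 and 104.7 TPM on the control diet, and was named after its values were seen. Of all tested genes 8.68% were without overlap. Among 9 elongation and termination factors outside the 10 genes, 4 lay above 0, with the diphthamide gene Dph2 at 0.20 (95% interval -0.23 to 0.64, and 0.088 without control replicate 3) and the release factor gene Etf1 at -0.042. The diphthamide pathway modifies the Eef2 protein. Limma passed 0 of these genes, and 0 had an unadjusted p under 0.05.

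No change was detected in genes that control the translation of TOP messages. Of 16 tested genes of mTORC1 signalling and TOP message binding, 9 lay above 0 and 7 below, with a median of 0.014. Mlst8, a subunit of the mTOR complexes, had the largest fold change, at 0.23 (95% interval -0.13 to 0.58), and Cnbp, a nucleic acid binding protein, the highest level, at 0.066. Of 6 partners of the poly(A) tail, 5 lay above 0, and Paip2, an inhibitor of Pabpc1, was at 0.14 (95% interval -0.12 to 0.39). Neither list had a gene with an unadjusted p under 0.05 in limma or in the authors' deposited table.

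**Figure D5:**
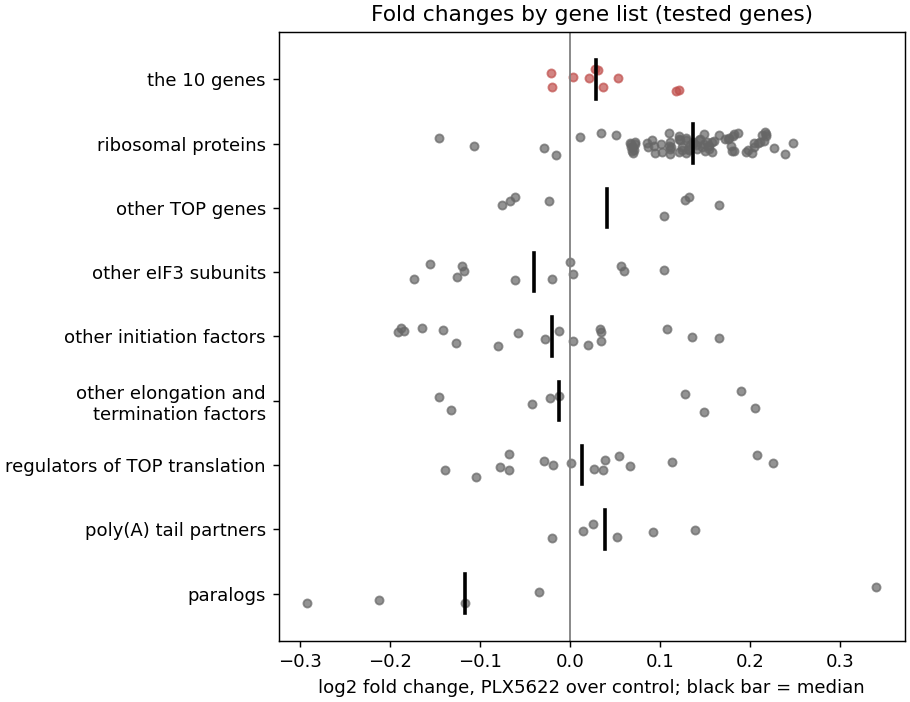
Log2 fold change of PLX5622 over control (x axis) of each tested gene (points) in the 10 genes and in 8 other lists (rows), with a black bar at the median of the list. The 10 genes have a median of 0.029 and the ribosomal protein genes one of 0.14.

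Paralogs of the 10 genes had lower levels in TPM. Eef1a2, the muscle and nerve form of Eef1a1, was at 0 TPM in 5 of the 6 libraries and at 0.0874 TPM in PLX5622 replicate 3. Pabpc4, the most abundant paralog, stood at 35.8, 31.4 and 36.9 TPM on PLX5622, against 43.1, 43.2 and 41.6 TPM on the control diet. All its PLX5622 libraries lay below all control libraries, where 8.68% of all tested genes had no overlap in either direction. The log2 fold change of Pabpc4 was -0.29 (95% interval -0.54 to -0.046). It did not pass the test across all genes (limma, unadjusted p = 0.0260 and adjusted p = 0.99998), and the authors' deposited table gives -0.29 (SE 0.141, unadjusted p = 0.0427). It kept a value between -0.34 and -0.22 when single libraries were left out. The level of Pabpc1 next to it had a log2 fold change of -0.020, and the difference between the pair was not tested. Npm2, a histone chaperone of the oocyte, was at 0.34 (95% interval -0.46 to 1.14) from at most 6.67 TPM. It was 0.028 without control replicate 2, 0.61 without control replicate 3 and 0.58 with voom on recovered reads. Npm3, Btf3l4 and Pabpc1l were at -0.034, -0.12 and -0.21, all of which changed by more than 1.5 times with single libraries left out, and Nacad was below the level that was tested, at 0.782 to 1.17 TPM.

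Outside these lists, the genes whose levels over the 6 libraries were most like the mean pattern of the 10 genes were Qrich1, Bin1, Osbpl8, Sumo3 and Atp5pb. Likeness was the root mean square distance between centred log2 profiles, and it ran between 0.017 for Qrich1 and 0.021 for Atp5pb. That pattern is nearly flat. Its centred means were 0.021, 0.015 and 0.020 in the PLX5622 libraries, against -0.0096, -0.048 and 0.0016 in the control libraries. Every PLX5622 library thus lay above every control library in the mean pattern, which held for 4.18% of all tested genes taken singly. The difference in the mean pattern was not tested. Being near it says mainly that a gene varied little. Qrich1 was at 86.4 to 86.6 TPM on PLX5622 and 84.4 to 85.9 TPM on the control diet. Atp5pb, a subunit of the ATP synthase, was at 191 to 195 TPM on PLX5622 and 184 to 188 TPM on the control diet. In both Qrich1 and Atp5pb every PLX5622 library lay above every control library. Both were picked for their likeness to the mean pattern.

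Most of the 10 genes have processed pseudogenes elsewhere in the genome, and the sources used here do not say how reads that match several places, or overlapping genes, were counted. The libraries do not mark the strand. The levels of these genes are therefore uncertain to that extent.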

How the data were processed

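Per the submitters' processing notes, the authors used the build mm39, DESeq2 1.32.0 under R 4.1.0, the aligner STAR 2.7.10a, and featureCounts and Subread 2.0.1. The sources used here give neither the annotation nor the counting settings. The authors deposited TPM per gene and library, each column with the same total. The deposited comparison table holds a mean normalized count over the libraries (a signal, the count divided by size factors), log2 fold changes with standard errors, a Wald score, p-values and adjusted p-values. Libraries were grouped by sample title.

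The 13739 genes whose mean reached 1 TPM entered a two-sided limma test (limma 3.58.1, R 4.3.3) of log2(TPM + 1), with a trend on level and Benjamini-Hochberg adjustment over all tested genes at 0.05. Limma moderates each gene's spread towards that of genes of similar level. Since TPM are no counts, a count model served only as an alternative. Replicates are labelled biological, and p-values and intervals rest on the spread between these libraries after that moderation. Eef1a1, with a residual SD of 0.038, has a standard error of 0.118, so its interval reflects mainly the spread of genes of similar level.

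Reads were recovered for the 15097 genes in both tables from the most frequent ratio of low TPM between libraries and the deposited mean normalized count. In every library 100% of values under 50 reads came within 0.05 of a whole number, and of values between 1000 and 5000 reads 95.2% to 96.2% did. Between 20000 and 200000 reads, the range of Eef1a1, Eef2 and Tpt1, 7.74% to 14.5% did, so the reads of the most abundant genes are estimates. On simulated data for 13411 genes 100% of values under 50 reads came back exactly. Counting errors cover counting only, since PCR copies are not independent molecules. No replicates agreed within sampling noise (smallest chi-square per degree of freedom 16.0).

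On simulated data for this comparison (13739 genes, 10 draws, independent libraries) the limma test found 0.800% of simulated 1.25-fold changes, 12.6% at 1.5-fold, 58.8% at 2-fold and 84.0% at 4-fold. The simulation used the moderated spread of each gene, and the changed genes were drawn from all tested genes. Before moderation the median residual SD was 0.21 over all tested genes, beside 0.067 over the 10 genes. Those residual SDs do not give the size of the difference after moderation. These rates are therefore not those of the 10 genes.

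The members and lists were chosen with earlier results of these data known, so no p is given over a list. From each list the gene with the largest fold change, the gene with the highest mean TPM and up to 4 genes with an unadjusted p under 0.05 are named, with all tested paralogs and the 5 genes nearest in profile. Ribosomal protein genes were taken by symbol, close paralogs included. Alternatives were other pseudocounts and filters, other scalings, other limma settings, a replicate block, voom on recovered reads and leaving out each library.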

Additional observations from a re-analysis of the deposited data

How the results depend on the processing

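Under 18 alternatives 0 of the 10 genes passed an adjusted p of 0.05 (lowest adjusted p 0.838, limma with the replicate block), and the same count of 0 held with each library left out. The median log2 fold change over the 10 genes, 0.029, was 0.052 with quantile normalization, and it ran between 0.0083 (without control replicate 2) and 0.051 (without control replicate 1) with single libraries left out. Of 180 single-gene values under the alternatives, 169 kept their sign and 11 did not. With quantile normalization Tpt1 was -0.17, Npm1 0.017 and Eif1 -0.0081. With library weights Tpt1 was -0.023, Npm1 0.028, Vim 0.011, Etf1 0.010 and Npm3 0.11. The weight was 0.452 for control replicate 1 and between 1.04 and 1.44 for the other libraries. Without control replicate 1 these genes were at -0.038, 0.079, 0.065, 0.069 and 0.22, in the same order. The cause of the sign changes was not tested. Without single libraries the range was -0.038 to 0.050 for Tpt1, -0.097 to 0.065 for Pabpc1, -0.10 to 0.079 for Npm1 and -0.026 to 0.062 for Btf3. Among the other named genes it crossed 0 for Vim (-0.15 to 0.065), Eif3h (-0.15 to 0.0013), Eif1 (-0.068 to 0.11), Etf1 (-0.13 to 0.11), Cnbp (-0.011 to 0.16) and Npm3 (-0.17 to 0.22). It kept its sign but moved by more than 1.5 times for Eef1a1 (0.0067 to 0.053), Eef1b2 (0.012 to 0.090), Eef1g (0.0013 to 0.071), Naca (0.0051 to 0.053), Eif4a1 (-0.32 to -0.026), Npm2 (0.028 to 0.61), Dph2 (0.088 to 0.30), Btf3l4 (-0.25 to -0.024), Pabpc1l (-0.29 to -0.069), Paip2 (0.065 to 0.21) and Eif4b (0.094 to 0.21). The same held for Eef2 (0.038 to 0.17), Eif3e (0.063 to 0.16), Eef1d (0.080 to 0.16), Rplp1 (0.10 to 0.19) and Eif3a (-0.20 to -0.10). It also held for Bin1 (0.013 to 0.051), Osbpl8 (0.00090 to 0.027) and Sumo3 (0.0043 to 0.052). Replicate numbers are shared between the diets, and the deviations of same-numbered libraries correlated at 0.196, 0.136 and 0.0873. The numbers were not taken as pairs, because not all of these were above 0.1. Each library correlated best with its own number, however, so these values do not exclude that the libraries were paired. With the replicate block the median stayed at 0.029, and 0 of all tested genes were called, with 821 at an unadjusted p under 0.05 in place of 459 (limma). The 3 libraries per diet and TPM, which hold shares of a library and no absolute RNA amounts, limit the comparison.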
